A study of Mus musculus with 14 samples.

Results

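The genes described here make cholesterol and fatty acids. They are the enzymes of the mevalonate and sterol pathway with the proteins that regulate and carry its product, called the sterol arm, and the enzymes that make, lengthen and desaturate fatty acids together with the regulator Srebf1, called the fatty acid arm. They were chosen by name, and of 34 genes listed 32 were measured, among 12393 genes in all. The sterol arm had 21 of its 23 genes measured, without Insig1 and Acat2, whose symbols matched no probe set used here, and the fatty acid arm had all 11. Each gene is represented by its probe set with the highest mean level, since 20 members had several probe sets.

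The cells were mouse hepatoblasts, the bipotent progenitors of the fetal liver, taken from wild-type embryos at day 14 and immortalised by seeding them at clonal density, so all groups derive from cells that grew out in culture. They carried a doxycycline-inducible construct, either an empty vector or one for isocitrate dehydrogenase 1 (IDH1) in its wild-type form, IDH1 with the R132C mutation, wild-type IDH2, or IDH2 with the R172K mutation. Both mutations occur in cholangiocarcinoma and give an enzyme that makes 2-hydroxyglutarate. The labels name doxycycline at 25 ng/mL for the IDH1 experiments, and the dose in IDH2 cells and the species of the introduced sequences are not given in the sources used here. All 5 kinds of cell grew on collagen-coated plates in a medium with fetal bovine serum, epidermal growth factor, insulin-like growth factor II and insulin. Vector and R132C cells were also grown for at most 5 days on plates without coating, the condition used to assay differentiation toward hepatocytes. Each of the 7 groups had 2 separate cultures on Affymetrix arrays, 14 in all, and this small number limits how precise each value below is. Levels are log2 of the deposited intensity.

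Median intensity per array was 134.9 to 148.3, and across genes the arrays of a group had a correlation r of 0.994 to 0.998. R172K replicate 1 had the lowest median and stood apart from its replicate in many genes of both arms. The arm medians that include it, and the differences of several members, are therefore also given without it. Of the hepatoblast markers, Krt8, Krt18, Krt19, Cdh1, Hnf4a and Afp were bright in every array. Alb was at or under the lower quartile of the array, which is close to background, in 10 of 14 arrays, and Prox1 in 14 of 14. Of the 16 measured mesenchymal, blood and endothelial markers, 7 were at or under that quartile in every array. In vector cells on uncoated plates Sox9, Epcam and Cdh1 rose and Afp and Krt19 fell among the 11 hepatoblast markers by limma. Of the other markers Col1a1 fell and Ptprc, a leukocyte gene, rose (log2 4.07 and 4.87 on collagen, 6.45 and 5.95 on uncoated plates). The summed intensity of the 4 measured blood markers was 86.8 to 118.2 in vector cells on collagen and 134.6 to 174.0 on uncoated plates. Hepatoblast markers summed to 65093 to 65812 on collagen and 64458 to 64822 on uncoated plates. The part of other cells in the results below was not tested.

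Cells make cholesterol from acetyl-CoA through mevalonate, farnesyl diphosphate, squalene and lanosterol. When sterols in the endoplasmic reticulum run low, the escort protein Scap carries the transcription factors SREBP2 and SREBP1 to the Golgi, where they are cut and released to the nucleus, and Insig proteins hold Scap back when sterols are plentiful. SREBP2, the product of Srebf2, acts mainly on the sterol pathway and the uptake of lipoproteins, and SREBP1c, a product of Srebf1, mainly on fatty acid synthesis. In the adult liver both arms supply bile acid and lipoprotein production.

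Promoter sequences are shown for 5 members with clear differences between plates, because members of both arms moved together there. They are 200 bases before the annotated start, read 5′ to 3′ on the strand of the gene, from RefSeq on GRCm38.p6: Hmgcs1 at chr13:119690151-119690350 on the plus strand, Idi1 at chr13:8885406-8885605 on the plus strand, Cyp51 at chr5:4104698-4104897 on the minus strand, Elovl6 at chr3:129532186-129532385 on the plus strand and Fasn at chr11:120824548-120824747 on the minus strand. Capitals mark the letters of a sterol regulatory element, TCACNCCAC, or of an NF-Y box, CCAAT, on either strand (ATTGG is CCAAT on the other strand), and in Fasn the run CCAATTGG is 2 overlapping matches on opposite strands.
Hmgcs1: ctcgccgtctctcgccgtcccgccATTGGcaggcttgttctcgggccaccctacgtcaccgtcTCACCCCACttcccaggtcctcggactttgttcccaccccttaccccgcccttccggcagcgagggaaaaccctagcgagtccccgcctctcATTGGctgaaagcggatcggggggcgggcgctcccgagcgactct
Idi1: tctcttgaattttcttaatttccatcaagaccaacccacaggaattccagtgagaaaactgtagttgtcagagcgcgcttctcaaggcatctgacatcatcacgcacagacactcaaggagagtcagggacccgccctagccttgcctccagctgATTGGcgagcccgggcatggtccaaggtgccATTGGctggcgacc
Cyp51: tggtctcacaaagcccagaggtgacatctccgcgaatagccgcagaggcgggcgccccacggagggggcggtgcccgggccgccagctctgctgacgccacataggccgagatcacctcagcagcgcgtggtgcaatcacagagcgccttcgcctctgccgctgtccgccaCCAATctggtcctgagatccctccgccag
Elovl6: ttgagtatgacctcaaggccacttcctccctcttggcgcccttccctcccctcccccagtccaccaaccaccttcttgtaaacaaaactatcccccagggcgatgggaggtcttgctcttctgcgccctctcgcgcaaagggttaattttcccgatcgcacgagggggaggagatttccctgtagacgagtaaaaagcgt
Fasn: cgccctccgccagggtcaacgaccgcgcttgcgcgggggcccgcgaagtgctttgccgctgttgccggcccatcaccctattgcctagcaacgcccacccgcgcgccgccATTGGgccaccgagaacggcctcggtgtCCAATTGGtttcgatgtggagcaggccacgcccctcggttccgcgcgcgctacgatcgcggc
In Hmgcs1 the sterol regulatory element began 137 bases before the start. Idi1 had CCAAT matches 45 and 14 bases before the start, Cyp51 had a match 29 bases before it, and the Elovl6 stretch had neither motif. A match is only a description of the letters.

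The same letters were counted in whole windows of 300 bases, from 250 before to 50 after each start, for the 25 members with a promoter in the RefSeq table. CCAAT was in 16 of 23 sterol arm promoters (69.6%) and 6 of 10 fatty acid arm promoters (60%), against 37.4% of all 32851 promoters. TCACNCCAC was in 1 sterol arm promoter (4.35%) and in none of the fatty acid arm's 10, against 1.24% of all. The Sp1 box GGGCGG was in 19 sterol arm promoters (82.6%) and 5 fatty acid arm promoters (50%), against 35.7% of all. All 3 motifs were searched on both strands, and several promoters of a gene can overlap.

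Across the 7 groups the largest shift of both arms lay between plates. Each gene's level was set against its mean in vector cells on collagen, and the median over the genes of an arm was taken in each culture. For the sterol arm this median was -0.24 and 0.24 in the vector cultures on collagen, -0.25 and 0.20 with wild-type IDH1, -0.32 and 0.22 with R132C, and -0.23 and 0.39 with wild-type IDH2. On uncoated plates it was -1.54 and -1.11 in vector cells and -1.10 and -0.77 in R132C cells. The R172K cultures on collagen lay at -0.80 and 0.11, so replicate 1 lay below every other culture on collagen, at about the level of the highest uncoated culture. Replicate 2 lay among the other collagen cultures, but below each of the other cultures there labelled replicate 2. The fatty acid arm had a smaller range, from -0.14 to 0.15 in the cultures on collagen other than R172K, -0.46 and -0.032 with R172K, -0.55 and -0.36 in vector cells on uncoated plates and -0.49 and -0.38 in R132C cells there. The same median over all genes stayed between -0.094 and 0.012, with the lowest value in R172K replicate 1.

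**Figure D1:**
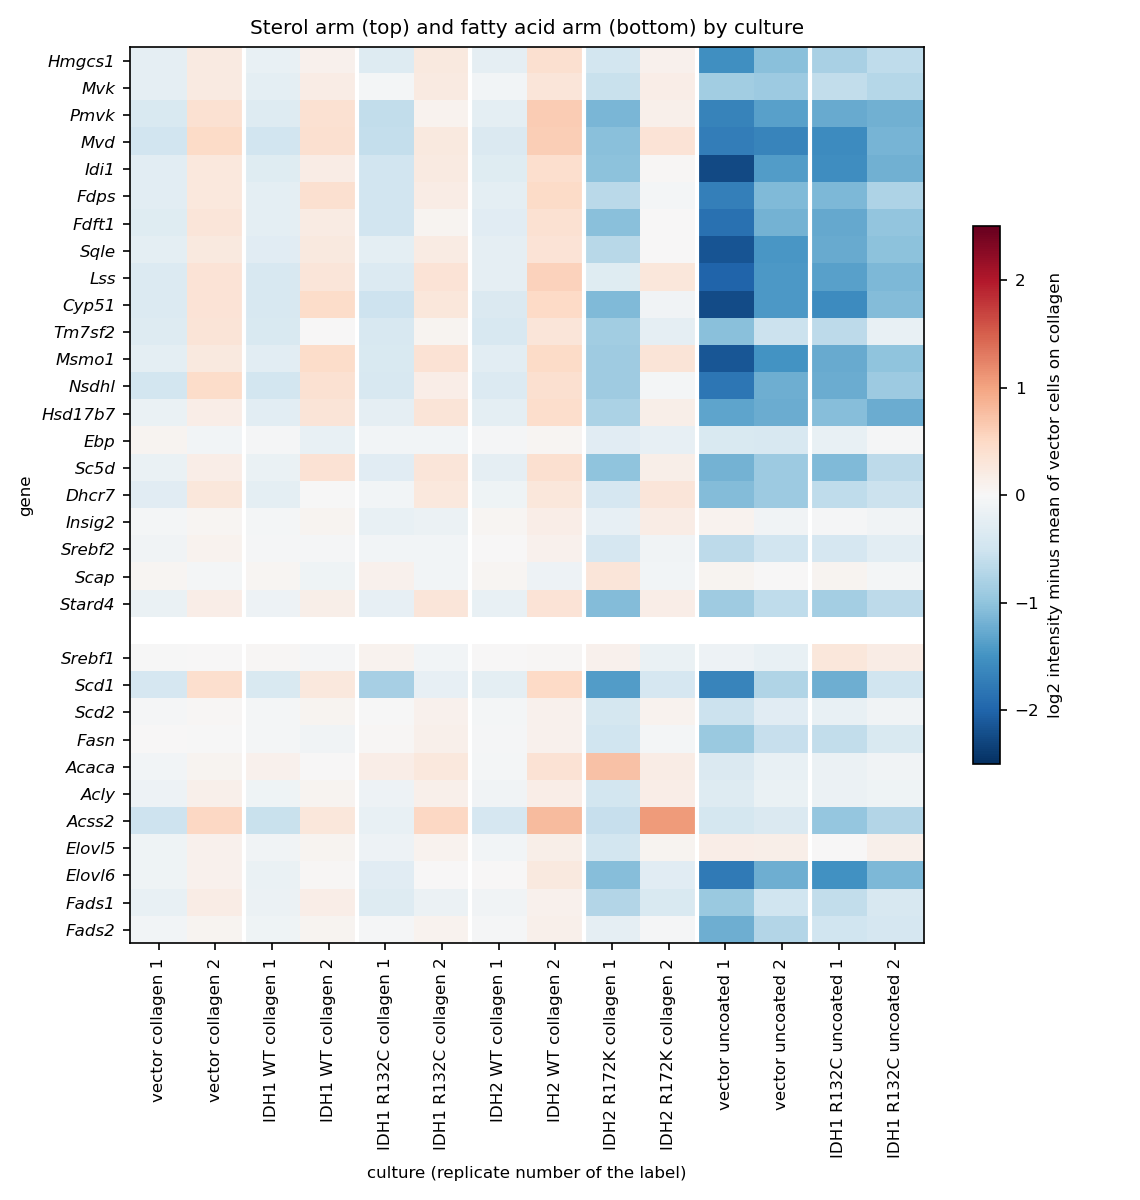
Each row is 1 of the 32 genes and each column 1 of the 14 cultures; colour gives log2 intensity minus the mean of the vector cultures on collagen, with the sterol arm above and the fatty acid arm below. The 4 uncoated columns are blue for most genes of the sterol arm, and Scap, Insig2, Srebf1, Acaca and Elovl5 stay close to white there.

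**Figure D2:**
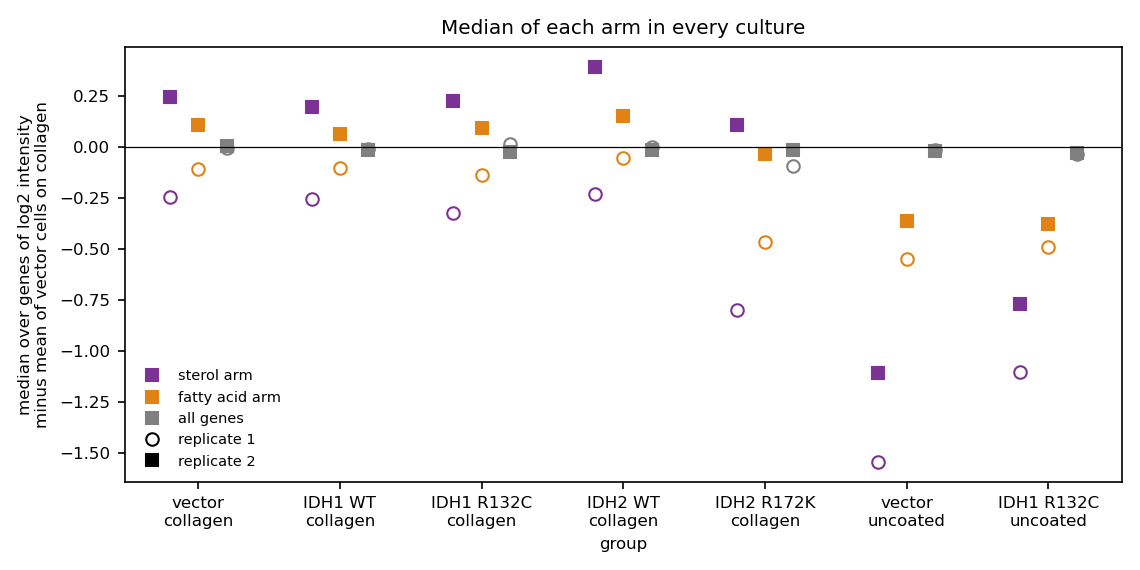
The y axis gives the median over genes of log2 intensity minus the vector mean on collagen, for both arms and for all genes, in each of the 7 groups; open circles are replicate 1 and filled squares replicate 2. The sterol arm lies at -1.54 and -1.11 in vector cells on uncoated plates, and at -0.80 and 0.11 in the R172K cultures.

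The first comparison asked what the uncoated plate did in vector cells. In the fit of limma over all arrays, 17 of 21 sterol arm genes fell, 0 rose, and the median change was -1.30. Of all genes, 29.3% passed a Benjamini-Hochberg adjusted p under 0.05 in this comparison, 14.2% lower and 15.1% higher, with a median of -0.020. The cultures on the 2 plates did not overlap in 19 sterol arm genes, all lower on uncoated plates, while 65% of all genes did not overlap in either direction. In RNA of a whole culture, fewer cells of a type and less RNA per cell cannot be told apart. The sterol median was -1.11 without vector uncoated replicate 1 and -1.54 without vector uncoated replicate 2. It was -1.53 without vector collagen replicate 1 and -1.07 without vector collagen replicate 2. Hmgcs1, Idi1, Sqle, Lss, Hsd17b7 and Srebf2 passed with each of the 4 arrays left out in turn, and the other 11 lost the call without at least 1 of them. Of these 11, Ebp lost it only without vector collagen replicate 1 (adjusted p = 0.0572 by limma), and Sc5d lost it with each of the 4 arrays left out.

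The early steps make and activate mevalonate. Hmgcs1 builds HMG-CoA, the substrate of HMG-CoA reductase, and its level was 13.07 and 13.52 in vector cells on collagen against 11.75 and 12.24 on uncoated plates. Every vector culture on collagen was above both on uncoated plates, a change of -1.30 with SE 0.26 (adjusted p = 0.00190 by limma with Benjamini-Hochberg). Mvk, the first of the mevalonate kinases, read 8.15 and 8.59 on collagen and 7.50 and 7.46 on uncoated plates, a change of -0.89 on the log2 scale. Pmvk, the next kinase, was at 9.30 and 10.07 and then at 8.02 and 8.32. It fell by 1.51 with SE 0.41, and the lower collagen culture was still clearly above the higher uncoated one. Mvd, which decarboxylates the product to isopentenyl diphosphate, was at 8.54 and 9.49 against 7.28 and 7.37. Its change of -1.69 (SE 0.47, adjusted p = 0.0162 by limma) had the widest error of the sterol arm. Idi1 isomerises isopentenyl diphosphate and measured 12.10 and 12.62 on collagen and 10.10 and 10.96 on uncoated plates. This change of -1.83 (SE 0.38, a 3.55-fold lower level, adjusted p = 0.00260 by limma) was, with that of Cyp51, the largest of the members. Fdps, which joins the units to farnesyl diphosphate, went from 12.04 and 12.58 to 10.61 and 11.20, a change of -1.40 with SE 0.32.

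The next enzymes commit farnesyl diphosphate to sterols. Fdft1, squalene synthase, was at 12.11 and 12.71 on collagen and at 10.54 and 11.24 on uncoated plates, a change of -1.52 with SE 0.35. Sqle, the epoxidase that is a control point of the pathway, was at 11.41 and 11.89 on collagen and 9.50 and 10.20 on uncoated plates. Its change of -1.80 with SE 0.30 had the smallest adjusted p of the sterol arm (0.000527 by limma with Benjamini-Hochberg), with the plates more than a log2 unit apart at their closest cultures. Lss, which closes the rings to lanosterol, read 10.16 and 10.85 against 8.50 and 9.07, a change of -1.71 with SE 0.34.

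The enzymes that turn lanosterol into cholesterol followed. Cyp51, which removes the first methyl group of lanosterol, was at 10.93 and 11.63 on collagen and 9.05 and 9.85 on uncoated plates, a change of -1.83 (SE 0.43, 3.56-fold, adjusted p = 0.00559 by limma). Msmo1, the oxidase of the remaining methyl groups, was at 11.71 and 12.20 against 9.82 and 10.47, a change of -1.81 with SE 0.39. Nsdhl and Hsd17b7 complete that demethylation, and they changed by -1.51 with SE 0.38 and -1.28 with SE 0.31. Nsdhl measured 9.94 and 10.87 on collagen and 8.61 and 9.18 on uncoated plates, and Hsd17b7 8.71 and 9.04 against 7.56 and 7.63. Sc5d, Dhcr7, Ebp and Tm7sf2 moved less. Sc5d, a desaturase of the sterol ring, fell by 1.05 (SE 0.33, adjusted p = 0.0313 by limma). Dhcr7, the reductase that ends one route to cholesterol, was at 8.68 and 9.25 against 7.87 and 8.05, a change of -1.004 with SE 0.23. Ebp, the sterol isomerase, fell by 0.39 with SE 0.087, the smallest change among the genes called, from 11.45 and 11.31 to 11.00 and 10.98. Tm7sf2, a sterol reductase, was at 9.38 and 10.02 against 8.65 and 9.17, and its difference of -0.79 with SE 0.31 did not pass the threshold (adjusted p = 0.0706 by limma).

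**Figure D3:**
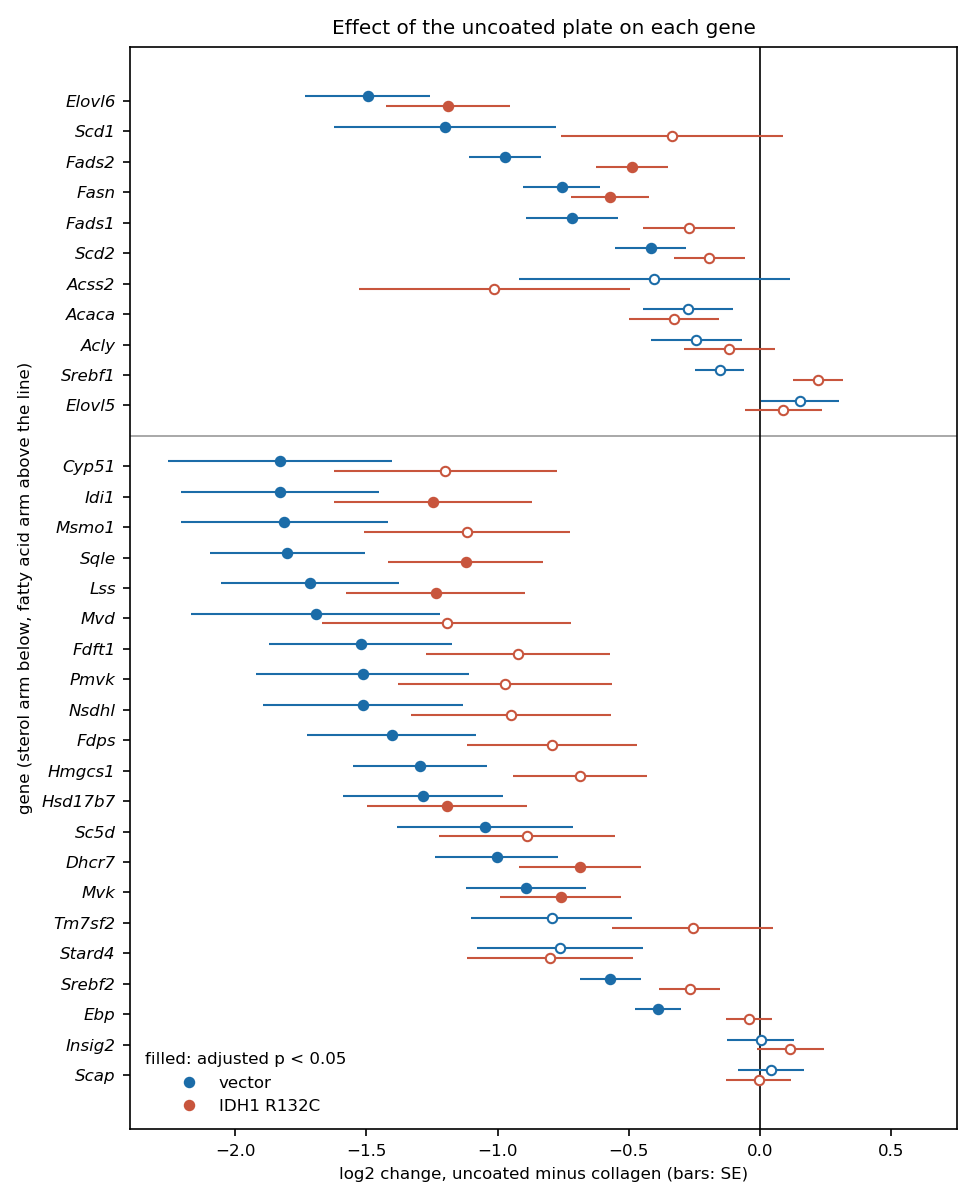
Points are the log2 change from collagen to uncoated plates for each gene with its standard error, in vector cells (blue) and R132C cells (red), filled where the adjusted p was under 0.05; the fatty acid arm is above the line and the sterol arm below. In vector cells 17 sterol arm genes and 6 fatty acid arm genes are filled, in R132C cells 6 and 3.

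Of the regulators and the carrier Stard4, Srebf2 alone passed the threshold. Srebf2, which encodes SREBP2, was at 10.52 and 10.69 in vector cells on collagen and 9.96 and 10.12 on uncoated plates. It fell by 0.57 with SE 0.12 (adjusted p = 0.00233 by limma), but its other probe set showed -0.16 with SE 0.19, and with the mean of both the call was lost (-0.36, adjusted p = 0.0920 by limma). Scap, the escort of SREBP, was at 9.96 and 9.87 against 9.98 and 9.92, a difference of 0.042 with a 95% interval from -0.23 to 0.31. Insig2, a retention protein of Scap, was at 9.36 and 9.47 against 9.50 and 9.34. The interval of its difference ran from -0.27 to 0.28, so a fall of the size seen in most enzymes lies outside it. Stard4, which carries sterols between membranes, was at 10.01 and 10.35 against 9.29 and 9.55, and its difference of -0.76 with SE 0.32 did not pass (adjusted p = 0.0925 by limma).

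In the fatty acid arm 6 of 11 genes fell in vector cells on uncoated plates, 0 rose, and the median change was -0.42. Of all genes 29.3% passed in this comparison, 14.2% lower. The cultures did not overlap in 10 of the 11 genes, 9 of them lower on uncoated plates and Elovl5 higher. Over all genes 65% did not overlap in either direction. Scd1, Scd2 and Fads1 lost the call without vector collagen replicate 2, and likewise without vector uncoated replicate 1. Scd2 also lost it without vector collagen replicate 1, while Elovl6, Fads2 and Fasn passed with each of the 4 arrays left out. The median was -0.74 without vector collagen replicate 1.

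Of the genes that supply the carbon, Acly differed little between plates in vector cells. Acly splits citrate into the acetyl-CoA used by both arms, and it was at 12.06 and 12.32 on collagen and 11.88 and 12.02 on uncoated plates, a difference of -0.24 with SE 0.17 (adjusted p = 0.349 by limma). Acss2 makes acetyl-CoA from acetate and varied most between cultures. It was at 6.96 and 7.99 on collagen and 7.03 and 7.11 on uncoated plates, so the plates overlapped, and the interval of the difference ran from -1.52 to 0.71. Acaca, which makes malonyl-CoA, was at or under the lower quartile in 13 of 14 arrays, so its probe set gives no usable level. Fasn, which builds palmitate, was at 11.20 and 11.18 on collagen and at 10.25 and 10.62 on uncoated plates. It fell by 0.76 with SE 0.15 (adjusted p = 0.00178 by limma with Benjamini-Hochberg), and the replicates on collagen were almost equal.

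Of the enzymes that lengthen and desaturate fatty acids, Elovl6, Scd1 and Fads2 fell more than Fasn, and Scd2 and Fads1 fell less. Elovl6 elongates palmitate to stearate and was at 10.76 and 10.99 on collagen and at 9.11 and 9.66 on uncoated plates. This was the largest change of the arm, a change of -1.49 (SE 0.24, 2.82-fold, adjusted p = 0.000429 by limma), with both uncoated cultures more than a log2 unit below both on collagen. Scd1, which puts the first double bond into stearate, was at 9.60 and 10.43 against 8.35 and 9.27. It fell by 1.20 with SE 0.42, only just past the threshold (adjusted p = 0.0489 by limma), and the call was lost with cyclic loess (adjusted p = 0.0501) and without the intensity trend (0.0607). Scd2, a desaturase of the same reaction, was at 13.95 and 14.02 against 13.44 and 13.70, a change of -0.42 with SE 0.14. The call for Scd2 was lost with its probe sets averaged (adjusted p = 0.154 by limma) and without the intensity trend (0.0611). Fads2 and Fads1 desaturate polyunsaturated fatty acids in sequence. Fads2 measured 10.68 and 10.81 on collagen and 9.53 and 10.01 on uncoated plates, a change of -0.97 with SE 0.14 and the smallest adjusted p of both arms (0.000191 by limma). Fads1 was at 11.18 and 11.54 against 10.42 and 10.86, a change of -0.72 with SE 0.17. Elovl5, which elongates polyunsaturated fatty acids, was at 12.14 and 12.36 against 12.41 and 12.39, a difference of 0.15 with an interval from -0.17 to 0.47. Srebf1 was at 11.27 and 11.31 against 11.17 and 11.10, a difference of -0.15 with SE 0.094 (adjusted p = 0.267 by limma), lower in both uncoated cultures by little.

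**Figure D4:**
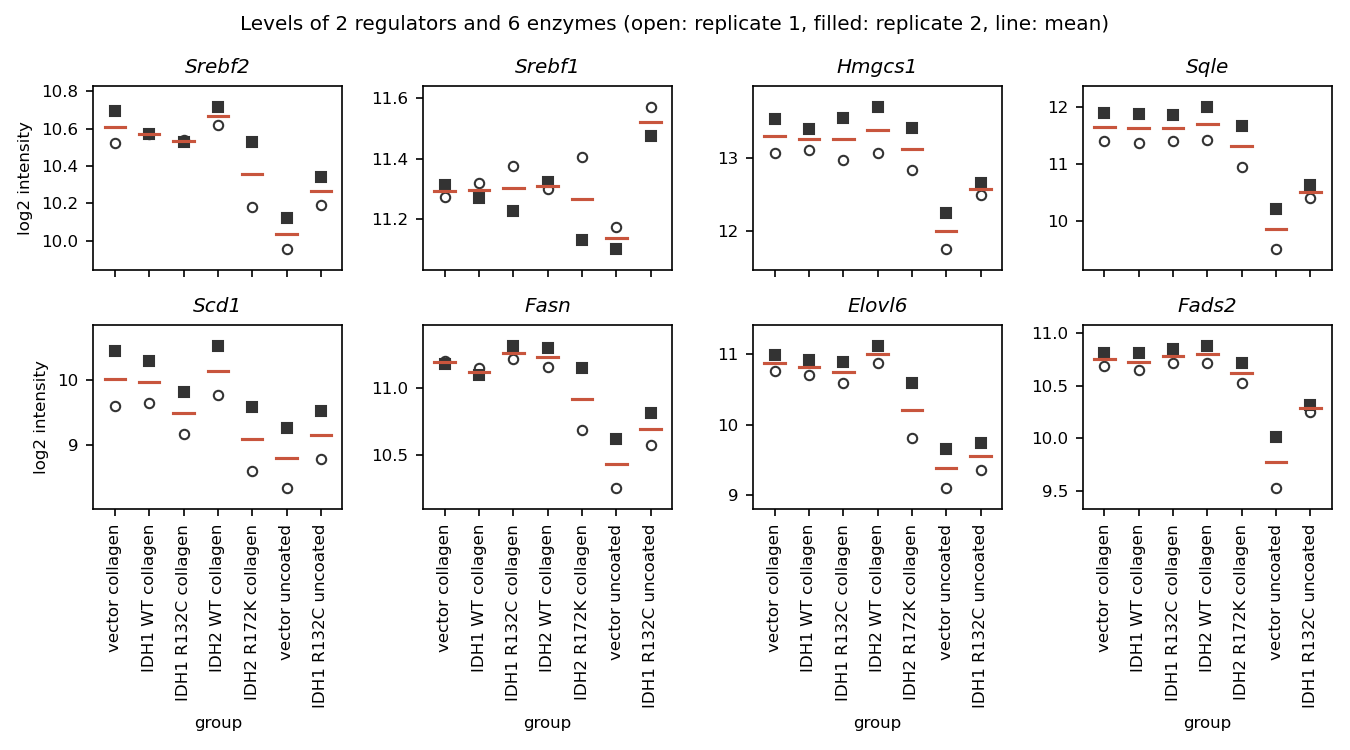
Each panel gives log2 intensity of 1 gene in the 7 groups; open circles are replicate 1, filled squares replicate 2 and lines the group mean, and each panel has its own y axis that does not start at 0. Srebf1 is highest in the R132C cultures on uncoated plates (11.57 and 11.47), where Srebf2 and the 6 enzymes shown are below their vector level on collagen.

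The choice of probe set changed few of these directions. The members had 31 further probe sets, of which 28 had a mean level above the lower quartile of every array, and all 28 had the sign of the chosen probe set in vector cells. Of the 21 that belong to 14 of the members that fell, 21 were below 0 and 14 passed the threshold by themselves.

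The same comparison in R132C cells gave fewer calls in this fit. On uncoated plates 6 of 21 sterol arm genes fell (Idi1, Lss, Hsd17b7, Sqle, Mvk and Dhcr7) and 3 of 11 fatty acid arm genes fell (Elovl6, Fasn and Fads2), 0 rose, and the medians were -0.89 and -0.33. Of all genes 25.9% passed here by limma, 12.3% lower and 13.6% higher, with a median of -0.028. All 9 members called in R132C cells were also called in vector cells. These counts rested on single arrays and on the estimate of the spread. The sterol median was -0.63 without R132C collagen replicate 2 and -1.19 without R132C collagen replicate 1. It was -0.77 without R132C uncoated replicate 1 and -0.996 without R132C uncoated replicate 2. The fatty acid median was -0.19 without R132C collagen replicate 2 and -0.37 without R132C collagen replicate 1. It was -0.17 without R132C uncoated replicate 1 and -0.38 without R132C uncoated replicate 2. Of the 9 members Elovl6 alone passed with each of the 4 arrays left out. With probe sets averaged per gene Mvk, Idi1, Lss and Dhcr7 lost the call (adjusted p = 0.0505 for Idi1 to 0.0839 for Mvk by limma), and Dhcr7 also without the intensity trend (0.0542). With arrays centred on their median 11 sterol arm genes passed, with weights for each array 16, and with only the arrays compared 17, all lower. With a term for the replicate number, the replicate block, 17 sterol and 6 fatty acid arm genes passed.

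Levels in R132C cells show how the replicates spread. Idi1 was at 11.88 and 12.58 on collagen and 10.81 and 11.16 on uncoated plates, a change of -1.25 with SE 0.38 (adjusted p = 0.0270 by limma). Lss was at 10.17 and 10.84 against 9.15 and 9.38, a change of -1.24 with SE 0.34. Sqle was at 11.40 and 11.86 against 10.40 and 10.62, a change of -1.12 with SE 0.30. In all 3 genes both uncoated cultures were below both on collagen. Cyp51, at 10.76 and 11.55 against 9.71 and 10.20, and Msmo1, at 11.57 and 12.31 against 10.70 and 10.95, just missed the threshold with differences of -1.20 and -1.12 (adjusted p = 0.0558 and 0.0540 by limma). Hmgcs1 was at 12.97 and 13.54 against 12.49 and 12.65, a difference of -0.69 with SE 0.26 (adjusted p = 0.0676 by limma). In the fatty acid arm Elovl6 was at 10.59 and 10.89 against 9.36 and 9.75, a change of -1.19 with SE 0.24 (adjusted p = 0.00277 by limma). Fasn was at 11.22 and 11.31 against 10.57 and 10.81, and Fads2 at 10.71 and 10.84 against 10.25 and 10.32, changes of -0.57 with SE 0.15 and -0.49 with SE 0.14. Scd1 was at 9.18 and 9.81 against 8.80 and 9.52, so the plates overlapped, with a difference of -0.34 (SE 0.42, adjusted p = 0.633 by limma).

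Srebf1 lay the other way in R132C cells, at 11.38 and 11.23 on collagen and 11.57 and 11.47 on uncoated plates, with both uncoated cultures above both on collagen. This difference of 0.22 with SE 0.094 did not pass (adjusted p = 0.109 by limma). Srebf2 was at 10.54 and 10.53 on collagen and 10.19 and 10.34 on uncoated plates, a difference of -0.27 with SE 0.12 (adjusted p = 0.113 by limma), while its other probe set showed 0.24. Scap and Insig2 differed by -0.0062 and 0.12.

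Whether the plate acted differently in R132C and in vector cells was tested as the difference between the effects. No member passed by limma with Benjamini-Hochberg adjustment, and 3 had an unadjusted p under 0.05 (Ebp, Srebf1 and Fads2). Of all genes 0.25% passed, all 31 lower, and 694 had an unadjusted p under 0.05. The difference was above 0, meaning a smaller fall or a rise in R132C cells, in 19 of 21 sterol arm genes with a median of 0.50 and in 8 of 11 fatty acid arm genes with a median of 0.22. Over all genes 6082 of 12393 were above 0 and the median was -0.0038. With 1 array left out the sterol median ran from 0.16 (without vector collagen replicate 2) to 0.84 (without vector collagen replicate 1). The fatty acid median ran from 0.055 (without vector uncoated replicate 1) to 0.35 (without vector uncoated replicate 2). Each array left out also makes the replicate numbers of the groups unequal. Sqle showed 0.68 with a 95% interval from -0.23 to 1.59, Hmgcs1 0.61 from -0.17 to 1.40 and Msmo1 0.70 from -0.51 to 1.90. These intervals include 0 and also values as large as the fall in vector cells, or nearly so. Ebp showed 0.35 (SE 0.12, adjusted p = 0.616 by limma), Srebf1 0.37 (SE 0.13, the same adjusted p) and Fads2 0.48 (SE 0.20, adjusted p = 0.737 by limma). Scd1 had the largest value of the members, 0.87, and its SE of 0.60 was wide. It passed the threshold in the fit with the replicate block, given with the alternatives.

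On uncoated plates R132C cells were also set against vector cells directly, which uses 4 of the same arrays. No member passed by limma in this fit, and 5 had an unadjusted p under 0.05. Of all genes 2.39% passed (0.896% higher and 1.49% lower), and 1637 had that unadjusted p. With the replicate block members of both arms passed, as given with the alternatives. The sterol arm was above 0 in 19 of 21 genes with a median of 0.37, and the fatty acid arm in 9 of 11 with a median of 0.21. These sizes changed with the array left out, which also makes the replicate numbers of the groups unequal. The medians were 0.14 and 0.053 without vector uncoated replicate 1 and 0.25 and 0.11 without R132C uncoated replicate 2. They were 0.50 and 0.40 without vector uncoated replicate 2, and 0.52 and 0.32 without R132C uncoated replicate 1. Over all genes the median was -0.014. Set against vector cells on collagen, the sterol median in replicate 1 was -1.54 in vector and -1.10 in R132C cells. In replicate 2 it was -1.11 and -0.77. The fatty acid median was -0.55 and -0.49 in replicate 1, and -0.36 and -0.38 in replicate 2. Both R132C cultures were above both vector cultures in 11 sterol arm genes and 5 fatty acid arm genes, and below them in 0 and 2, while 47% of all genes did not overlap in either direction. Sqle was at 9.50 and 10.20 in vector and 10.40 and 10.62 in R132C cells, a difference of 0.66 with SE 0.30 (adjusted p = 0.350 by limma). Hmgcs1 was at 11.75 and 12.24 against 12.49 and 12.65, a difference of 0.57 with SE 0.26. Ebp was at 11.00 and 10.98 against 11.19 and 11.36, a difference of 0.28 with SE 0.087. In these 3 genes the groups did not overlap, yet none passed. Nearest to the threshold were Srebf1, 11.17 and 11.10 against 11.57 and 11.47 (0.38, SE 0.094, adjusted p = 0.0549 by limma), and Fads2, 9.53 and 10.01 against 10.25 and 10.32 (0.51, SE 0.14, adjusted p = 0.0840 by limma). With weights for each array 1 fatty acid arm gene passed, and 1 passed without vector uncoated replicate 2. Of the hepatoblast markers Afp was higher in R132C than in vector cells there, by 1.45, and Epcam lower by a change of -1.49 (both passed by limma), and their part in these differences was not tested.

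On collagen neither wild-type enzyme nor R132C moved a member past the threshold. For R132C against vector 0 of 12393 genes passed by limma (0%), with 936 at an unadjusted p under 0.05 and none of them a member, and the medians were -0.065 for the sterol arm and 0.0093 for the fatty acid arm. The sign of both turned with the array left out, which also makes the replicate numbers of the groups unequal. The sterol median was -0.32 without R132C replicate 2 and -0.26 without vector replicate 1, and 0.22 without R132C replicate 1 and 0.19 without vector replicate 2. The fatty acid median ran from -0.14 to 0.095 over the same arrays. R132C against wild-type IDH1 gave 6 calls (0.0484%), no member called and none at an unadjusted p under 0.05, and medians of -0.038 and 0.021, which ran from -0.28 to 0.24 and from -0.067 to 0.11 with an array left out. The intervals show what these arrays could see. For Sqle the difference between R132C and vector lay between -0.66 and 0.62, for Hmgcs1 between -0.59 and 0.51, for Srebf2 between -0.33 and 0.18 and for Srebf1 between -0.19 and 0.21. Scd1 differed most, by -0.52 with an interval from -1.44 to 0.39, and was at 9.60 and 10.43 in vector, 9.64 and 10.28 with wild-type IDH1 and 9.18 and 9.81 with R132C. Those 3 groups overlapped.

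Wild-type IDH1 against vector gave 0 calls over all genes by limma (0%), 128 genes at an unadjusted p under 0.05 and no member among them, with medians of -0.027 and -0.020, which ran from -0.27 to 0.20 and from -0.12 to 0.094 with an array left out. Wild-type IDH2 against vector also gave 0 calls (0%), 116 genes at that unadjusted p and no member. Its medians were 0.082 and 0.039, with 19 of 21 sterol arm genes and 11 of 11 fatty acid arm genes above 0, against 5758 of 12393 genes. This direction also turned with 1 array left out, where the replicate numbers of the groups are unequal. The medians were -0.15 and -0.018 without vector replicate 1 and -0.23 and -0.056 without wild-type IDH2 replicate 2. No member separated the wild-type IDH2 from the vector cultures, while 22.6% of all genes did not overlap in either direction. These comparisons share the vector arrays, so their values are not independent of each other.

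R172K cells had lower mean values of most members, and the shift was larger in replicate 1. Set against vector cells on collagen, the sterol median in replicate 1 was -0.80 with R172K and -0.23 with wild-type IDH2. In replicate 2 it was 0.11 and 0.39, and 0.24 in vector cells. The fatty acid median was -0.46 and -0.056 in replicate 1, and -0.032 and 0.15 in replicate 2. Against wild-type IDH2 no member passed by limma and 5 had an unadjusted p under 0.05 (Ebp, Srebf2, Scd1, Elovl6 and Fads1), while 1.73% of all genes passed, 1.14% lower and 0.597% higher. The medians were -0.43 in the sterol arm, with 20 of 21 genes below 0, and -0.20 in the fatty acid arm, with 9 of 11 below 0, against -0.045 over all genes. Without R172K replicate 1 they were -0.026, with 11 of 21 below 0, and -0.078, with 6 of 11. Without R172K replicate 2 they were -0.82 and -0.50, and 4 sterol arm genes, all lower, and 7 fatty acid arm genes, 6 of them lower, then passed, where 18.8% of all genes passed. Against vector, 0 members passed by limma and 5 had an unadjusted p under 0.05, while the threshold was passed by 4.27% of all genes, 3.12% lower and 1.15% higher. The medians of -0.34 and -0.17 became 0.11 and -0.032 without R172K replicate 1. The sign of the sterol median changed, with the replicate numbers of the groups then unequal. Without R172K replicate 2 they were -0.80 and -0.46, and 2 sterol arm genes, both lower, and 7 fatty acid arm genes, 6 of them lower, passed, where 20.9% of all genes did. In both comparisons the gene that was higher was Acaca, whose probe set was near background. With the replicate block members of both arms passed in both comparisons, as given with the alternatives. The control arrays moved the medians too, and each array left out makes the replicate numbers of the groups unequal. Against wild-type IDH2 they were -0.77 and -0.34 without wild-type IDH2 replicate 1 and -0.13 and -0.12 without replicate 2, and against vector they were -0.58 and -0.27 without vector collagen replicate 1 and -0.10 and -0.087 without replicate 2. Of the 11 hepatoblast markers 7 were lower in R172K cells than with wild-type IDH2, and 8 were lower than in vector cells. The other 4 and 3 were higher, by up to 0.73 and 0.74, none past the threshold. Epcam, Hnf4a and Krt18 passed by limma against wild-type IDH2 (changes of -0.94, -0.66 and -0.26), and these and Cdh1 against vector. The 11 hepatoblast markers summed to an intensity of 58429 to 60046 with R172K and 63387 to 67218 with wild-type IDH2, and the 4 blood markers to 113.5 to 196.2 against 98.5 to 100.1. Ptprc was at or under the lower quartile in both R172K cultures. The part of these markers in the results was not tested.

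The members with the largest values show the split. Scd1 was at 9.76 and 10.51 with wild-type IDH2 and at 8.61 and 9.59 with R172K, a difference of -1.04 with SE 0.42 (adjusted p = 0.236 by limma). It was -0.55 without R172K replicate 1 (adjusted p = 0.791). Elovl6 was at 10.88 and 11.11 against 9.81 and 10.59, a difference of -0.79 with SE 0.24 (adjusted p = 0.116 by limma), and of -0.41 without R172K replicate 1. Fads1 was at 11.27 and 11.47 against 10.63 and 10.99, a difference of -0.57 with SE 0.17 (adjusted p = 0.124 by limma), and of -0.39 without that array. In these 3 genes of fatty acid elongation and desaturation both R172K cultures were below both with wild-type IDH2, and they kept a value below 0 without replicate 1. Such separation was no more frequent in the members than elsewhere, in 36.4% of the fatty acid arm and 9.52% of the sterol arm against 40.5% of all genes. Cyp51 was at 10.92 and 11.79 against 10.18 and 11.19, overlapping, with a difference of -0.67 (SE 0.43) that was -0.16 without R172K replicate 1. Stard4 was at 9.10 in R172K replicate 1 and at 10.35 in replicate 2, and between 9.98 and 10.53 in the other 8 collagen cultures.

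Cultures labelled replicate 2 had higher levels of most members in every group. Replicate 2 was above replicate 1 in all 7 groups for 15 of 21 sterol arm genes (71.4%) and 7 of 11 fatty acid arm genes (63.6%), against 357 of all 12393 genes (2.88%). Scap was the only member with the opposite order in all 7 groups. The median gap in the sterol arm was 0.22 to 0.72 by group, largest in R172K, and 0.12 to 0.52 in the fatty acid arm, while over all genes it stayed between -0.033 and 0.088. What the replicate numbers stand for is not given in the sources used here, and the part of this gap in the errors above was not tested apart from the fit given with the alternatives.

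Neighbouring genes of the pathways were taken from lists of further sterol genes, of sterol efflux, esters and oxysterols, of other fatty acid and glyceride synthesis, and of fatty acid oxidation. Their counts stand against the 29.3% of all genes that passed in vector cells and the 25.9% in R132C cells. Of 11 further sterol genes measured, 3 rose and 3 fell in vector cells on uncoated plates (54.5%), with a median of 0.0098. Tmem97, an endoplasmic reticulum protein that binds sterols, was at 9.47 and 9.56 on collagen and 8.23 and 8.32 on uncoated plates, a change of -1.25 with SE 0.16. Lbr, which also has sterol reductase activity, fell by 0.99 with SE 0.11, and Erg28, a scaffold of the demethylation enzymes, fell by 0.43 with SE 0.15. Npc1, which moves cholesterol out of lysosomes, rose by 0.57 with SE 0.13 (adjusted p = 0.00563 by limma). In R132C cells 4 of these genes rose and 2 fell (54.5%), with a median of 0.13. Without vector uncoated replicate 1 the vector count was 3, and without R132C collagen replicate 1 the R132C count was 3. Npc1 lost its call in vector cells without replicate 1 of either plate, and Erg28 without vector collagen replicate 2 or either vector uncoated array, without the intensity trend, and with only the arrays compared.

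Of 13 genes of efflux, esters and oxysterols, 4 rose and 1 fell in vector cells (38.5%), with a median of 0.12. In R132C cells 4 rose and 2 fell (46.2%), with a median of 0.034. Apoe, 1 of these 2, was at or under the lower quartile in 14 of 14 arrays, so its fall is no usable change. Cyp27a1, which makes an oxysterol, was at 5.73 and 6.13 on collagen and 8.17 and 7.95 on uncoated plates in vector cells, and at 5.64 and 5.57 against 6.99 and 7.16 in R132C cells. It rose by 2.13 with SE 0.15 and by 1.47 with SE 0.15. Abcg5, a subunit of a sterol exporter, was at 3.81 and 4.02 against 6.87 and 6.07 in vector cells and at 3.82 and 3.79 against 4.57 and 4.77 in R132C cells. All cultures on collagen and 1 of the R132C cultures on uncoated plates were at or under the lower quartile of their array, so only a bound can be given. Against that quartile Abcg5 was at least 3.25-fold higher in vector cells on uncoated plates than on collagen, and R132C cells give no fold. Abcg5 was the only gene of the 4 lists past the threshold for the difference between plate effects (adjusted p = 0.0229 by limma with Benjamini-Hochberg). That call was lost when only the arrays compared were fitted (adjusted p = 0.112 by limma) and without either vector collagen array, either R132C collagen array or R132C uncoated replicate 1 (0.0601 to 0.135). Abca1, a cholesterol exporter, was also at or under the quartile in vector cells on collagen and rose by at least 1.57-fold on uncoated plates, not past the threshold without vector uncoated replicate 1 (adjusted p = 0.0551 by limma). Scarb1, a receptor for high-density lipoprotein, fell by 0.59. Without R132C collagen replicate 1 or R132C uncoated replicate 2 the count in R132C cells was 3.

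Of 22 further genes of fatty acid and glyceride synthesis, 3 rose and 4 fell in vector cells (31.8%) and 3 rose and 3 fell in R132C cells (27.3%), shares close to those of all genes, with medians of -0.12 and -0.085. Dgat2, which completes triglycerides, rose by 1.75 with SE 0.16, from 7.28 and 7.10 to 9.17 and 8.70. Aacs, which activates acetoacetate for lipid synthesis, fell by 1.20 with SE 0.23, and Me1, a source of NADPH, fell by 0.74 with SE 0.11. With probe sets averaged per gene the changes of Dgat2 and Aacs were 1.03 and -0.63, and both still passed. Without vector uncoated replicate 1 the vector count was 3 and without replicate 2 it was 4, and in R132C cells it was 3 without R132C collagen replicate 1, R132C collagen replicate 2 or R132C uncoated replicate 1. Of 13 genes of fatty acid oxidation 9 rose and 0 fell in vector cells (69.2%), with a median of 0.50, and 6 rose and 0 fell in R132C cells (46.2%), with a median of 0.25. Cpt1a, which admits fatty acids to mitochondria, was at 9.20 and 9.26 on collagen and 11.69 and 11.56 on uncoated plates, a rise of 2.40 with SE 0.10 (adjusted p = 1.86e-08 by limma). In R132C cells it went from 9.36 and 9.18 to 10.87 and 11.02, a rise of 1.68. Acaa2, a thiolase of the same route, rose by 1.31 with SE 0.12. Acadl lost its call in vector cells with probe sets averaged (0.11, adjusted p = 0.394 by limma) and without the intensity trend. Hadha lost it there with cyclic loess, with arrays centred on their median and with only the arrays compared. In R132C cells Acadm lost its call without the intensity trend and with each of the 4 arrays left out. The median of this list was thus above 0 on uncoated plates, where the medians of both arms of synthesis were below.

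**Figure D5:**
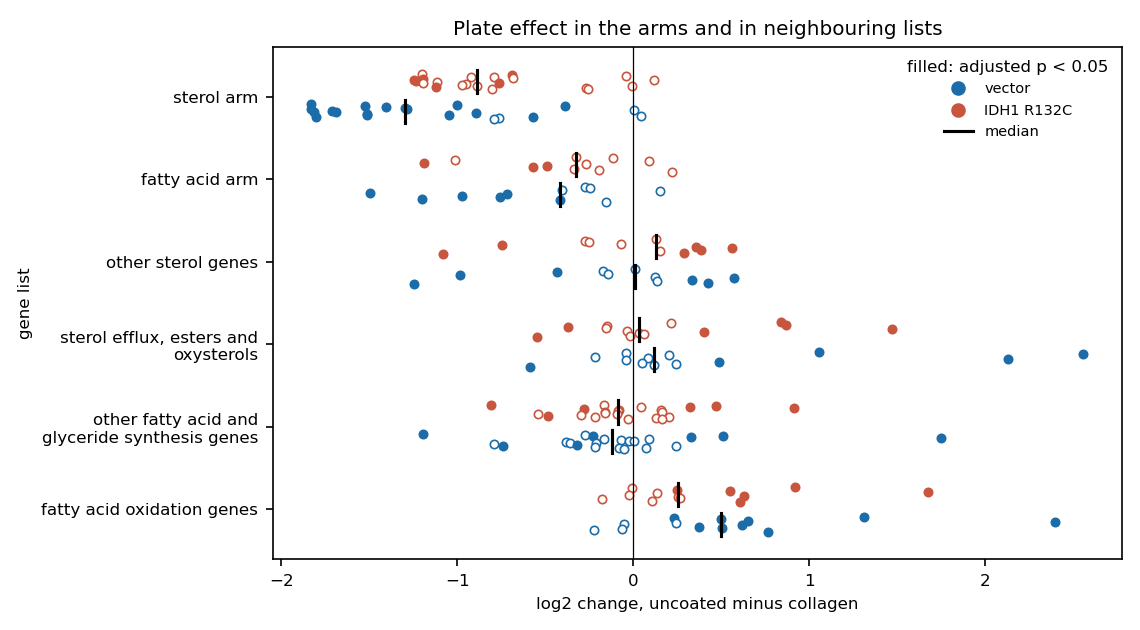
Each point is a gene's log2 change from collagen to uncoated plates, in vector cells (blue) and R132C cells (red), filled where the adjusted p was under 0.05, with a black bar at the list's median. The sterol arm has medians of -1.30 and -0.89, the fatty acid arm -0.42 and -0.33, and fatty acid oxidation 0.50 and 0.25.

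Between forms of IDH a few of these neighbours passed where no member did. On uncoated plates R132C cells were lower than vector cells in Abcg5, whose level in R132C cells was at or near the lower quartile of the array, and differed by -0.99 in Cyp27a1, -0.70 in Dgat2, -0.68 in Cpt1a and -0.35 in Pgrmc1. On collagen R172K cells differed from vector cells by -0.63 in Cpt1a, -0.59 in Cyp27a1 and -0.44 in Etfdh, an enzyme of electron transfer from fatty acid oxidation. All of these passed by limma with an adjusted p under 0.05, as did 2.39% and 4.27% of all genes. Abcg5 still passed with each of the 4 arrays left out in turn. Cyp27a1 and Cpt1a lost the call on uncoated plates without replicate 1 of either group, Pgrmc1 without these or vector uncoated replicate 2, and Dgat2 without these or R132C uncoated replicate 2. Dgat2 showed -0.30 with probe sets averaged (adjusted p = 0.339 by limma) and lost the call with only the arrays compared (0.113). Pgrmc1 lost it there (0.0582) and without the intensity trend (0.0771). In R172K cells Cyp27a1 lost the call without R172K replicate 1 or vector collagen replicate 2, Cpt1a without vector collagen replicate 2 and Etfdh without either vector array, and with only the arrays compared all 3 lost it (adjusted p = 0.181 to 0.349), as with weights for each array (0.127 to 0.306). Cyp27a1 also lost it with cyclic loess (0.0553) and with arrays centred on their median (0.0612), and Cpt1a with probe sets averaged (-0.43, adjusted p = 0.0878 by limma).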

How the data were processed

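RNA of 14 hepatoblast cultures, 2 in each of 7 groups named by GEO's labels, was hybridised to Affymetrix mouse arrays of type 430Av2. Per the submitters' processing notes the deposited intensity of each probe set came from RMA, with no version or settings stated there. Values ran from 5.84 to 26770, a linear scale, and log2 was taken here. Detection calls were not used here, and the background correction could not be redone. Probe sets with 1 gene symbol represented 12393 genes by the highest mean level. No column of values lacked a sample.

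One model with a mean for each of the 7 groups was fitted over the 14 arrays (limma 3.58.1, R 4.3.3; lmFit, eBayes with trend, 7 residual and 5.67 prior degrees of freedom), tested on simulated data. Of this fit 10 comparisons were drawn. A gene was called where its p, adjusted over all genes by Benjamini-Hochberg, was under 0.05, intervals cover 95%, and p-values measure only the spread between these cultures. Members and lists were chosen with earlier results of these data known. All members may be named. Values per culture were given for up to 8 sterol and 6 fatty acid genes by change and for the regulators, with further members added after their values were seen, and from other lists up to 4 called genes.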

Additional observations from a re-analysis of the deposited data

Results flagged for a closer look

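Abcg5, a subunit of a sterol exporter that is not a member of either arm, was singled out because its change between plates differed between R132C and vector cells in a test of the difference itself. The fitted difference was -1.69 (adjusted p = 0.0229 by limma with Benjamini-Hochberg), which is no measured fold, since Abcg5 was at or under the lower quartile of the array in 11 of 14 arrays, among them every culture on collagen. On uncoated plates it was lower in both R132C cultures than in both vector cultures. No member of either arm passed that test.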

How the results depend on the processing

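In vector cells the plate effect kept its counts within 1.5 times under each alternative but the arrays left out: 8 to 16 sterol arm genes (17 with all arrays) and 3 to 6 fatty acid arm genes (6). In R132C cells the sterol count of 6 became 11 with arrays centred on their median, 16 with array weights and 17 with only the arrays compared, and 0 to 5 with an array left out. The fatty acid count of 3 became 6 with only the arrays compared and 1 to 2 with an array left out. For R132C against vector on uncoated plates the fatty acid count of 0 became 1 with array weights and 0 to 1 with an array left out. With an array left out, R172K gave 0 to 4 sterol and 0 to 7 fatty acid calls against wild-type IDH2, and 0 to 2 and 0 to 7 against vector. The labels' replicate numbers are shared by the groups but not said to mark a shared batch, and deviations of same-numbered arrays correlated from -0.041 to 0.49 over 21 pairs of groups, over 0.1 in 13. The replicate block gave 17 sterol and 6 fatty acid calls for the plate effect in R132C cells, 6 and 2 for R132C against vector on uncoated plates, 6 and 3 for R172K against each of wild-type IDH2 and vector, and 1 fatty acid call (Scd1) for the difference between plate effects. The cause of these shifts was not tested. The share of all genes called for each plate effect was also lower with any 1 of its 4 arrays left out. No sign of a called member turned under any alternative run. A group left with 1 array took its spread from the other groups. Background correction was not run, since only summarised values were used. Levels near background limit Acaca, Abcg5, Abca1 and Apoe, and 2 cultures per group limit all errors.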
